A study of Mus musculus with 6 samples.

Results

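The 49 genes described here encode Toll-like receptors, inflammasome proteins, subunits and inhibitors of the transcription factor NF-kB, and the cytokines, receptors and surface proteins that act around them. They were listed by name for these roles, with earlier results of these data known, and are 49 of 29347 genes that held any estimated read. The filter on low counts left 48 of them for testing, and Il1a, which encodes interleukin-1 alpha, did not pass it.

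Toll-like receptors (TLRs) are sensors of microbial products, placed on the cell surface or in endosomes, and most of them signal through the adaptor Myd88 and the Irak kinases. The signal frees NF-kB dimers from the inhibitory IkB proteins, and the dimers enter the nucleus and switch on cytokine genes together with genes that shut the signal off again. Inflammasomes are cytoplasmic complexes built around sensors such as Nlrp3, which activate caspase-1 so that it can mature interleukin-1 beta and interleukin-18. Neutrophils and monocytes are among the cell types in which these systems act.

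RNA-seq of CD11b+Gr1+ splenocytes from tumor-bearing Mll-AF9 mice was used to compare 3 Rpl22+/+ with 3 Rpl22-/- libraries. Mice of both genotypes carried the Mll-AF9 fusion, an oncogene that drives acute myeloid leukemia and that the study describes as a knockin, and the Rpl22-/- mice had a germline loss of Rpl22, a gene for a ribosomal protein of the large subunit. The spleens were taken from diseased animals and the CD11b+Gr1+ myeloid fraction, which holds leukemic cells and any normal myeloid cells still present, was purified by flow cytometry. In the study's text 1 mouse stands for each genotype, and no label ties the libraries to different animals, so p-values measure only the spread between these libraries.

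Estimated reads per library ranged from 35828500 in Rpl22-/- replicate 1 to 102866127 in Rpl22-/- replicate 3. Rpl22 itself stood at 148, 235 and 152 CPM (the usual depth-scaled read count, here with TMM scaling of library sizes) in Rpl22+/+ and at 58.3, 89.9 and 73.5 CPM in Rpl22-/-, so reads of the gene remained in every Rpl22-/- library. In a principal component analysis, the first component (66.0% of the variance) separated the genotypes, and the second (25.9%) split off Rpl22+/+ replicate 2. Transcripts that define mature neutrophils were lower in Rpl22-/-, with 8 of 8 markers called and summed levels of 38460 to 52460 CPM in Rpl22+/+ against 9886 to 14080 CPM in Rpl22-/-. Erythroid markers were higher, with 5 of 5 called and sums of 59.9 to 91.9 against 397 to 787 CPM. Of the macrophage markers 6 of 8 were higher and 1 was lower (sums of 101 to 138 against 59.0 to 103 CPM), and T cell markers were lower (30.2 to 38.5 against 9.52 to 11.3 CPM). B cell markers summed to 567 to 721 CPM against 359 to 551 CPM, without overlap, and of these 5 only Pax5 passed the adjusted p (-0.81, 0.0232), at less than 2-fold. Of the NK cell markers 3 of 4 were called higher (5.43 to 5.84 against 12.1 to 19.1 CPM). Genes of the sorted antigens were present in all libraries. Of these, Itgam (CD11b), its partner Itgb2 and the Gr1 antigen Ly6g were lower in Rpl22-/-, with log2 fold changes of -1.02, -1.44 and -3.49, while the Gr1 antigens Ly6c1 and Ly6c2 did not pass the test (0.40 and 0.51, adjusted p = 0.360 and 0.180).

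More genes of the group fell than rose in Rpl22-/- leukemias, and most did not pass the test. A gene was called when its adjusted p-value (edgeR quasi-likelihood test, Benjamini-Hochberg adjustment over 16656 genes) was under 0.05 and its change exceeded 2-fold. By this rule 11 of the 48 genes tested (22.9%) were lower, where 8.54% of all genes tested were called lower, and 1 gene (2.08%) was higher, where 8.93% of all genes were. The 11 genes were the receptors Tlr1, Tlr6, Tlr7, Tlr8 and Tlr13, the NF-kB subunit Relb, the survival gene Birc3, the interleukin-1 antagonist Il1rn, the cytokine Il18, the decoy receptor Il1r2 and the adhesion molecule Icam1, and the higher gene was Tlr4. Without the fold threshold, 15 genes (31.2%) fell and 1 rose, against 13.8% and 13.7% of all genes, and the other 32 did not pass the adjusted p. The median log2 fold change of the 48 genes was -0.51, against 0.07 over all genes tested, and 40 of the 48 had a value below 0. The values of the 2 genotypes did not overlap for 21 genes that were lower and 1 that was higher, where 22.2% and 23.9% of all genes tested showed such a separation.

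**Figure D1:**
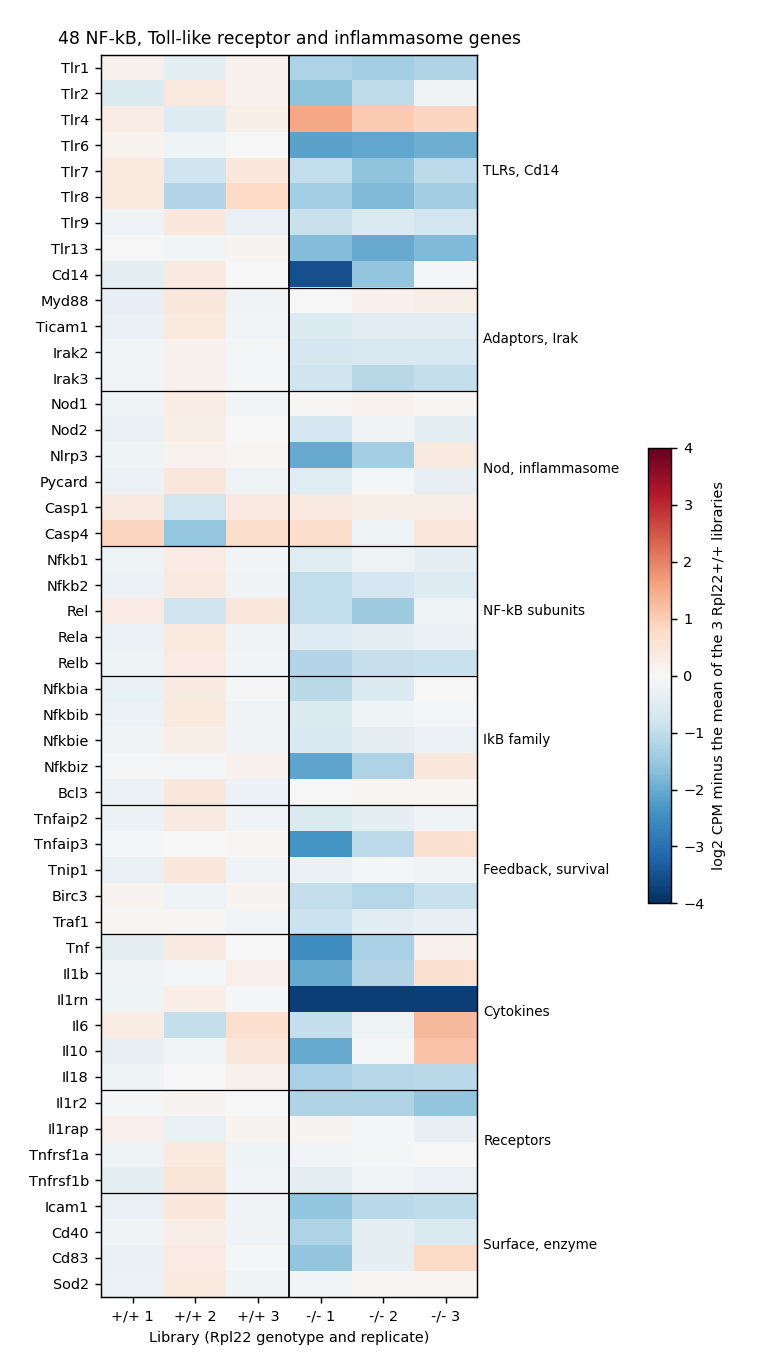
Level of each of the 48 tested genes (rows, by role) in each library (columns), as log2 CPM minus the mean of the 3 Rpl22+/+ libraries on a color scale from -4 (blue) to 4 (red). The Rpl22-/- columns are mostly blue, Il1rn is the darkest row at all 3 Rpl22-/- libraries, Tlr4 is red in all 3, and rows such as Cd14, Nlrp3, Nfkbiz, Tnfaip3, Tnf and Il1b pass from dark blue in Rpl22-/- replicate 1 to pale or red in replicate 3.

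**Figure D2:**
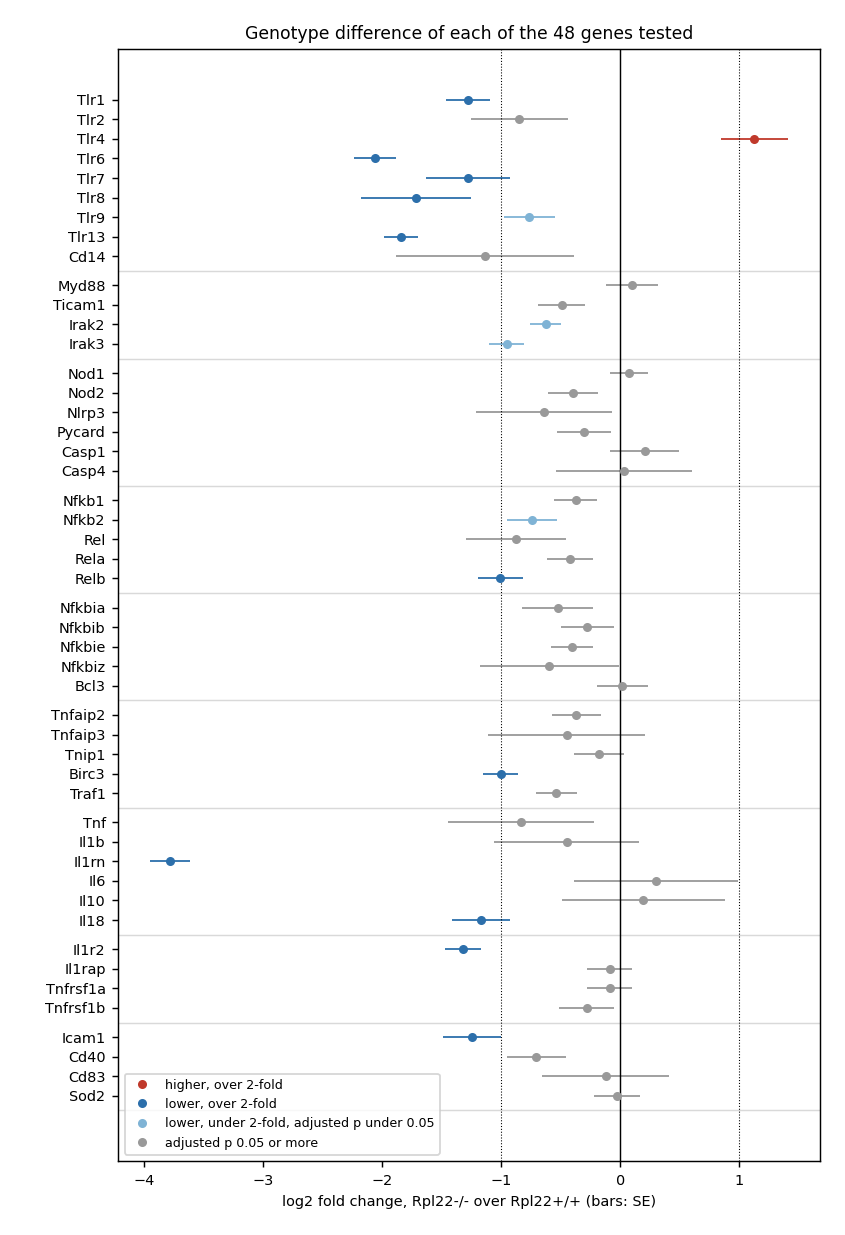
Fitted log2 fold change of each of the 48 genes (horizontal axis, Rpl22-/- over Rpl22+/+, bars are standard errors), grouped by role, with dotted lines at 2-fold. The 11 genes called lower are dark blue, Tlr4 is red, the 4 genes that fell by less than 2-fold (Tlr9, Irak2, Irak3 and Nfkb2) are light blue, and Il1rn lies far to the left at -3.78.

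The sensors of the cell surface moved in both directions. Of the 9 genes for TLRs and the co-receptor Cd14, 5 were called lower and 1 higher, with a median log2 fold change of -1.28. Tlr1 and Tlr6 encode the partners with which Tlr2 forms heterodimers that recognize bacterial lipoproteins. Tlr6 was at 10.2, 8.28 and 9.46 CPM in Rpl22+/+ and at 2.11, 2.19 and 2.40 CPM in Rpl22-/-. The Rpl22-/- libraries lay close together and far below the lowest Rpl22+/+ library, a 4.16-fold reduction (log2 fold change -2.06 ± 0.17 SE, edgeR adjusted p = 0.000442). Tlr1 stood at 28.2, 19.4 and 27.7 CPM against 10.6, 9.56 and 10.9 CPM. The groups did not overlap, and the level was 2.43-fold lower in Rpl22-/- (-1.28 ± 0.19, edgeR adjusted p = 0.00341). Tlr2, their common partner, was at 60.2, 116 and 98.9 CPM in Rpl22+/+ and at 29.0, 44.0 and 79.7 CPM in Rpl22-/-. Rpl22-/- replicate 3 reached into the Rpl22+/+ range, and the difference did not pass the test (-0.85 ± 0.41, edgeR adjusted p = 0.175). The genes for Tlr1 and Tlr6 are neighbors on chromosome 5 (GRCm39 chr5:65082022-65090906 and chr5:65109374-65117440, both on the minus strand, 18.5 kb apart) and are paralogs, and how reads were shared between them is uncertain. Gene sums here hold only the transcripts matched to the annotation. The sum for Tlr6 was 0.624 of the base mean that the authors give, so its fold change may rest on a partial sum, while Tlr1 had a ratio of 0.973. Casp1 and Il6 also fell short, at 0.792 and 0.829, and the other 46 of the 49 genes had a ratio between 0.9 and 1.1.

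Tlr4, the receptor for bacterial lipopolysaccharide, was the gene called higher. Its level was 23.8, 13.6 and 23.1 CPM in Rpl22+/+ and 56.9, 40.0 and 35.1 CPM in Rpl22-/-. Every Rpl22-/- library lay above every Rpl22+/+ library, a 2.18-fold difference (1.13 ± 0.28, edgeR adjusted p = 0.0258). Per transcript length Tlr4 was a modest transcript, at 6.54 ± 2.68 TPM (SD, n = 3) in Rpl22+/+ and 15.6 ± 4.34 TPM in Rpl22-/-. Cd14, which hands lipopolysaccharide to Tlr4, was at 124, 204 and 156 CPM in Rpl22+/+ and at 14, 53.4 and 153 CPM in Rpl22-/-. Its Rpl22-/- libraries spanned 11-fold, the highest reached the Rpl22+/+ range, and the genotypes could not be told apart (-1.13 ± 0.75, edgeR adjusted p = 0.319). The Tlr4 call was lost without Rpl22+/+ replicate 2 (0.86, adjusted p = 0.0161, under 2-fold) or replicate 3 (1.23, adjusted p = 0.0620), and without Rpl22-/- replicate 1 (0.90, adjusted p = 0.0825) or replicate 2 (1.15, adjusted p = 0.0891). Tlr4 lies on chromosome 4 (GRCm39 chr4:66745821-66848521), as does Tnfrsf1b (-0.28). The median log2 fold change on that chromosome was 0.43 over 734 genes, while chromosome 9, which holds Tlr9, Myd88, Casp1, Casp4, Birc3, Il18 and Icam1, had 0.34 over 659 genes and the other chromosomes lay between -0.08 and 0.08. The part of this shift in the results was not tested.

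The 4 endosomal receptors of the group, Tlr7, Tlr8, Tlr9 and Tlr13, all fell. Tlr3, an endosomal receptor for double-stranded RNA that is not among the 49 genes, stood at 0.669, 0.311 and 0.534 CPM against 0.962, 0.779 and 1.246 CPM, higher in each Rpl22-/- library but without passing the test (0.98 ± 0.38, edgeR adjusted p = 0.105). Tlr13, a mouse sensor of bacterial ribosomal RNA, was at 117, 108 and 125 CPM in Rpl22+/+ against 35.1, 28.5 and 34.3 CPM in Rpl22-/-. Both groups were tight, and the reduction was 3.57-fold (-1.84 ± 0.14, edgeR adjusted p = 0.000332). Tlr7, a sensor of single-stranded RNA, was at 28.5, 12.4 and 28.8 CPM against 11, 7.18 and 10.6 CPM, and was called lower (-1.28 ± 0.35, edgeR adjusted p = 0.0366). Its neighbor Tlr8 (40.6 kb away on chromosome X) was at 21.6, 7.43 and 28.5 CPM against 6.42, 4.88 and 6.27 CPM (-1.71 ± 0.46, edgeR adjusted p = 0.0339). For both genes Rpl22+/+ replicate 2 lay far below the other Rpl22+/+ libraries and only just above the highest Rpl22-/- library. Both calls were lost when any library other than Rpl22+/+ replicate 2 was left out, with adjusted p-values between 0.0864 and 0.146, whereas without replicate 2 they held. Tlr9, the sensor of unmethylated CpG DNA, fell by less than 2-fold, from 41.6, 61.4 and 37.0 CPM to 24.6, 30.4 and 27.5 CPM (-0.76 ± 0.22, edgeR adjusted p = 0.0404).

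**Figure D3:**
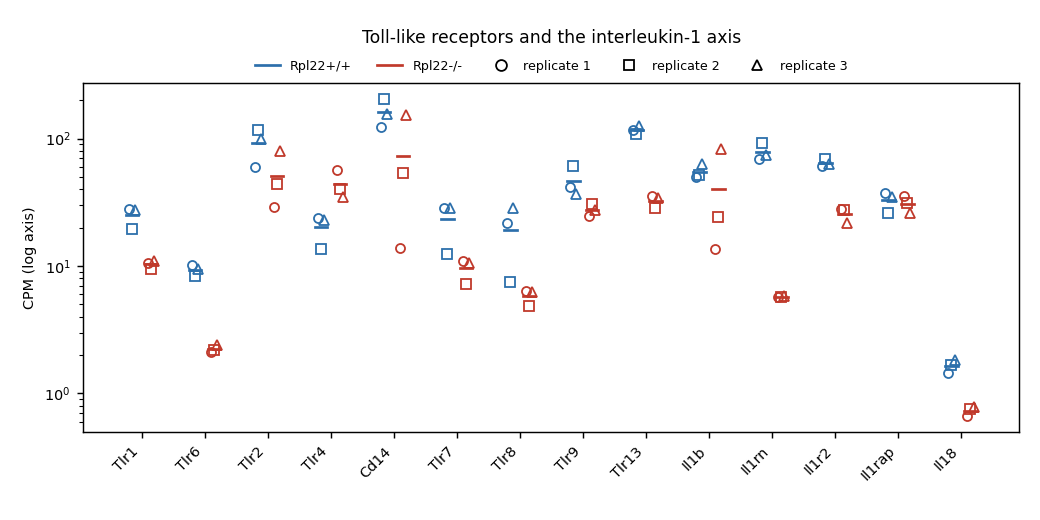
CPM (log axis) of the TLRs and Cd14 and of the interleukin-1 genes in each library, with circles, squares and triangles for replicates 1, 2 and 3 and horizontal bars for the mean of the 3 libraries of Rpl22+/+ (blue) and Rpl22-/- (red). The red points of Tlr6, Tlr13 and Il1rn are tightly grouped below the blue points and those of Tlr4 lie above. Those of Cd14 spread from far under the blue points into their range, and those of Il1b from far under the blue points to above them.

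The falls among sensors stood beside lower mature neutrophil transcripts in the same libraries (above), and in these bulk samples fewer cells of a type cannot be told apart from less RNA per cell. The part of the neutrophil markers in the results for the TLRs was not tested. The same holds for the other genes, Il1rn, Il1r2 and the further pathway genes below among them. The part of the B cell markers in the results for Tlr9, Cd40, Relb, Nfkb2 and Traf1, which B cells also express, was not tested either. None of the 4 adaptor and Irak genes of the group was called, and 2 of them fell by less than 2-fold. Myd88, the adaptor of most TLRs, was at 119, 203 and 135 CPM in Rpl22+/+ and at 149, 168 and 173 CPM in Rpl22-/-, with overlapping groups (0.10 ± 0.22, edgeR adjusted p = 0.782). Ticam1, the adaptor of the branch toward interferon, had a value of -0.49 (adjusted p = 0.114) without overlap of the groups. Irak3, a kinase-like protein that restrains TLR signaling, fell to 41.0, 32.6 and 36.4 CPM from 66.2, 78.9 and 67.9 CPM (-0.95 ± 0.15, edgeR adjusted p = 0.00425). Irak2, a kinase of the same family that sustains the signal, fell from 62.8, 76.6 and 64.2 to 42.8, 44.7 and 44.3 CPM (-0.63 ± 0.13, adjusted p = 0.0136). Both changes were under 2-fold, and in both genes all Rpl22-/- libraries lay below all Rpl22+/+ libraries. Irak3 was called lower when Rpl22+/+ replicate 1 or Rpl22-/- replicate 1 was left out.

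None of the 6 genes for Nod proteins and the inflammasome passed the test, and the genotypes overlapped in each of them. Their median log2 fold change was -0.14. Pycard, the adaptor that links inflammasome sensors to caspase-1, was at 65.7, 106 and 68.2 CPM against 55.6, 75.9 and 62.6 CPM (-0.30 ± 0.23, edgeR adjusted p = 0.383). Casp4, which encodes the caspase that senses cytoplasmic lipopolysaccharide, was at 45.3, 8.64 and 40.6 CPM against 40.6, 21.9 and 34.1 CPM (0.03 ± 0.57). Rpl22+/+ replicate 2 was 5.24-fold below the highest Rpl22+/+ library. Without that library the value for Casp4 was -0.47, with an adjusted p of 0.142. Nod1 and Nod2, sensors of bacterial cell wall fragments, had values of 0.07 and -0.40, and Casp1 of 0.21. Casp1 and Casp4 lie 1.54 kb apart on chromosome 9. Nlrp3, at 34.0, 42.5 and 39.8 CPM in Rpl22+/+, ranged from 9.62 to 49.6 CPM in Rpl22-/- and is taken up again with the genes that varied like it.

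The 5 NF-kB subunits all had negative values, with a median of -0.74. In 4 of the 5 the genotypes did not overlap, where 22.2% of all genes tested were lower without overlap. Relb, a subunit of the non-canonical dimers, was the 1 subunit called, at 22.9, 33.1 and 24.7 CPM in Rpl22+/+ and 11.8, 13.9 and 14.5 CPM in Rpl22-/- (-1.01 ± 0.19, edgeR adjusted p = 0.0089). All Rpl22-/- libraries were far below the Rpl22+/+ libraries, but the size lies at the 2-fold limit and fell short of it without Rpl22+/+ replicate 2 (-0.87, adjusted p = 0.00393) and without Rpl22-/- replicate 1 (-0.92, adjusted p = 0.0414), as it did with the replicate number as a block (-0.99, adjusted p = 0.00565). Nfkb2, which encodes the partner of Relb, fell from 77.2, 118 and 83.3 to 45.8, 56.7 and 63.7 CPM (-0.74 ± 0.21, edgeR adjusted p = 0.0407). Nfkb1, the precursor of p50, was the most abundant subunit at 122 TPM over all libraries. Its CPM were 255, 364 and 269 against 207, 251 and 226, without overlap, and the difference did not pass the test (-0.38 ± 0.18, edgeR adjusted p = 0.178). Rela, the p65 subunit, was at 90.8, 141 and 97.8 against 74.6, 82.7 and 88.7 CPM (-0.42 ± 0.20, adjusted p = 0.165), again without overlap. Rel was the subunit whose groups overlapped, at 79.3, 36.1 and 85.6 against 31.4, 23.5 and 54.8 CPM (-0.87 ± 0.42, adjusted p = 0.176). Rpl22+/+ replicate 2 was again low, and without it Rel was lower at an adjusted p of 0.0241 (-1.23).

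None of the 5 IkB family genes passed the test. Nfkbia, the IkB alpha gene and itself a direct NF-kB target, had the highest level of all 49 genes per transcript length, 153 TPM over all libraries. It was at 142, 223 and 171 CPM in Rpl22+/+ and at 83.4, 116 and 173 CPM in Rpl22-/-, where replicates 1 and 2 lay below all Rpl22+/+ libraries and replicate 3 among them (-0.52 ± 0.30, edgeR adjusted p = 0.247). Nfkbie, another inhibitor, had no overlap between the groups (-0.41, adjusted p = 0.134), while Nfkbib (-0.28) and the nuclear co-regulator Bcl3 (0.02) did. Among the 5 feedback and survival genes, Birc3, which encodes the ubiquitin ligase cIAP2, was called lower. It was at 120, 95.0 and 118 CPM against 56.9, 49.7 and 59.2 CPM, a 2.01-fold reduction with no overlap (-1.004 ± 0.15, edgeR adjusted p = 0.00379). Its size fell below 2-fold without Rpl22+/+ replicate 1 or 3 or Rpl22-/- replicate 2 (-0.95, -0.96 and -0.96), with adjusted p-values of 0.0172 to 0.0300, and with the replicate number as a block it was -0.9998 (adjusted p = 0.00282). Tnfaip2 was the most abundant of these genes, at 231, 347 and 246 against 185, 211 and 243 CPM (-0.37 ± 0.20, adjusted p = 0.236). Traf1, an adaptor of TNF receptors, had no overlap (-0.54, adjusted p = 0.0630), and Tnip1, a partner of A20, stayed at -0.18 (adjusted p = 0.592).

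The cytokines parted into genes with a tight fall and genes with a wide spread. Il1rn encodes the interleukin-1 receptor antagonist, a secreted protein that occupies the receptor without signaling. It was at 69.1, 92.8 and 74.1 CPM in Rpl22+/+ and at 5.72, 5.68 and 5.78 CPM in Rpl22-/-. The Rpl22-/- libraries differed among themselves by a factor of 1.02 and lay 13.7-fold below Rpl22+/+ (-3.78 ± 0.17, edgeR adjusted p = 5.24e-05), the largest difference of the 48 genes. Per transcript length Il1rn went from 68.1 ± 1.52 TPM (SD, n = 3) to 4.74 ± 0.27 TPM. Its agonist Il1b, which encodes interleukin-1 beta, was at 49.9, 52.0 and 63.4 CPM in Rpl22+/+ and at 13.6, 24.3 and 82.9 CPM in Rpl22-/-. The lowest and the highest of the 6 values were both Rpl22-/- libraries, and the genotypes could not be told apart (-0.45 ± 0.61, edgeR adjusted p = 0.650). The ratio of Il1rn to Il1b in TPM was 0.916, 1.26 and 0.807 in Rpl22+/+ and 0.263, 0.137 and 0.0433 in Rpl22-/-. So Il1rn RNA was about as abundant as Il1b RNA in Rpl22+/+ and well under it in each Rpl22-/- library, and the proteins were not measured. Mature neutrophil markers had a median log2 fold change of -3.00 in the same libraries, and their part in the fall of Il1rn was not tested.

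Il18, an interleukin matured by the inflammasome, was called lower at a low level, 1.45, 1.67 and 1.84 CPM against 0.668, 0.749 and 0.784 CPM (-1.17 ± 0.24, edgeR adjusted p = 0.0138). The groups did not overlap, and the call was lost without Rpl22+/+ replicate 3 (adjusted p = 0.0694) or Rpl22-/- replicate 3 (adjusted p = 0.0519). Tnf, the gene for tumor necrosis factor, was at 43.8, 73.0 and 57.2 CPM against 10.1, 23.3 and 63.9 CPM. Here too Rpl22-/- replicate 3 stood among the Rpl22+/+ libraries and the other Rpl22-/- libraries below them (-0.84 ± 0.61, edgeR adjusted p = 0.371). Il6, Il10 and Il1a were close to silent. For Il1a, 3, 6 and 6 reads were estimated in the Rpl22+/+ libraries and 2, 8 and 7 in those of Rpl22-/-, and Il6 and Il10 averaged 0.138 and 0.381 TPM over all libraries (log2 fold changes of 0.30 and 0.20, edgeR adjusted p = 0.797 and 0.868). With 46 of the 49 genes over 1 TPM in either genotype, these 3 were the exceptions, and no difference in them was detectable at this depth.

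Of the 4 receptor genes of the group, the decoy Il1r2 was called lower and the others did not pass the test. Il1r2, a decoy that captures interleukin-1 without passing a signal, was at 60.8, 68.8 and 63.0 CPM in Rpl22+/+ and at 27.9, 27.6 and 21.7 CPM in Rpl22-/-. Both groups were tight, and the reduction was 2.5-fold (-1.32 ± 0.15, edgeR adjusted p = 0.0013). Il1rap, the accessory chain that signaling needs, was at 37.2, 26.3 and 34.9 against 35.2, 31.2 and 26.0 CPM (-0.09 ± 0.19, adjusted p = 0.776). Tnfrsf1a, the widely expressed TNF receptor and the second most abundant of the 49 genes at 150 TPM, was at 189, 284 and 194 against 203, 210 and 215 CPM (-0.09 ± 0.19, adjusted p = 0.778). Tnfrsf1b, the other TNF receptor, had a value of -0.28 (adjusted p = 0.431). Of the surface and enzyme targets, Icam1, the ligand of leukocyte integrins, fell from 48.9, 80.5 and 54.0 to 20.1, 27.97 and 29.3 CPM (-1.24 ± 0.24, edgeR adjusted p = 0.0110) with no overlap. Sod2, the mitochondrial superoxide dismutase and a classical NF-kB target, was at 47.98, 73.2 and 50.05 against 51.9, 57.5 and 58.5 CPM (-0.03 ± 0.19, adjusted p = 0.937). Cd40, a costimulatory receptor, did not overlap (-0.70, adjusted p = 0.0787).

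The spread between Rpl22-/- libraries set 7 genes apart, which were picked after their values were seen. Over 46 of the genes with a mean of at least 50 reads, 7 (15.2%) differed by more than 4-fold between the 3 Rpl22-/- libraries, against 279 of 13081 genes (2.13%) in all. They were Cd14, Nlrp3, Nfkbiz, Tnfaip3, Tnf, Il1b and Cd83, and all 7 were lowest in replicate 1 and highest in replicate 3, an order that 130 of the 279 genes (46.6%) had. In Rpl22+/+ a single gene of the 46, Casp4, exceeded 4-fold (2.17%), against 926 of all genes (7.08%), so over all genes such a spread was more frequent in Rpl22+/+. Tnfaip3, which encodes the feedback inhibitor A20, was at 111, 120 and 123 CPM in Rpl22+/+ and at 22.4, 57.1 and 180 CPM in Rpl22-/-. Nfkbiz, an inducible nuclear IkB protein, was at 133, 132 and 158 against 32.7, 60.3 and 187 CPM, and Nlrp3 at 34.0, 42.5 and 39.8 against 9.62, 15.1 and 49.6 CPM. In each of these genes the Rpl22+/+ libraries stood together, with Rpl22-/- replicates 1 and 2 under them and replicate 3 over them. Cd83, a surface marker of activated cells, was at 14, 21.1 and 15.9 against 5.59, 12.8 and 28.4 CPM. None of the 7 passed the test with all libraries. When Rpl22-/- replicate 3 was left out, Nlrp3 (-1.64, edgeR adjusted p = 0.0140), Nfkbiz (-1.60, 0.0236), Tnf (-1.79, 0.0442) and Il1b (-1.53, 0.0254) were called lower, and the number of genes called lower was 12. When Rpl22-/- replicate 1 was left out instead, their log2 fold changes lay between -0.41 and -0.04 and that of Tnfaip3 was 0.01.

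The order of the libraries was shared with immediate early genes, which are switched on within minutes by many stimuli, the handling of cells among them. Of 14 such genes, 12 differed by over 4-fold between Rpl22-/- libraries and all 14 were lowest in replicate 1 and highest in replicate 3, an order found in 24 of the 46 genes (52.2%) and in 12.9% of all genes. Their summed level was 5420 to 8665 CPM in Rpl22+/+ and 3333, 8696 and 16970 CPM in Rpl22-/- replicates 1, 2 and 3, and 0 of the 14 differed by over 4-fold among Rpl22+/+ libraries. None of the 14 was called between genotypes. The part of these genes in the spread of the 7 genes was not tested. By contrast Il1rn, Tlr6 and Tlr13, with 1.02-fold, 1.14-fold and 1.23-fold between the lowest and highest Rpl22-/- library, varied little.

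**Figure D4:**
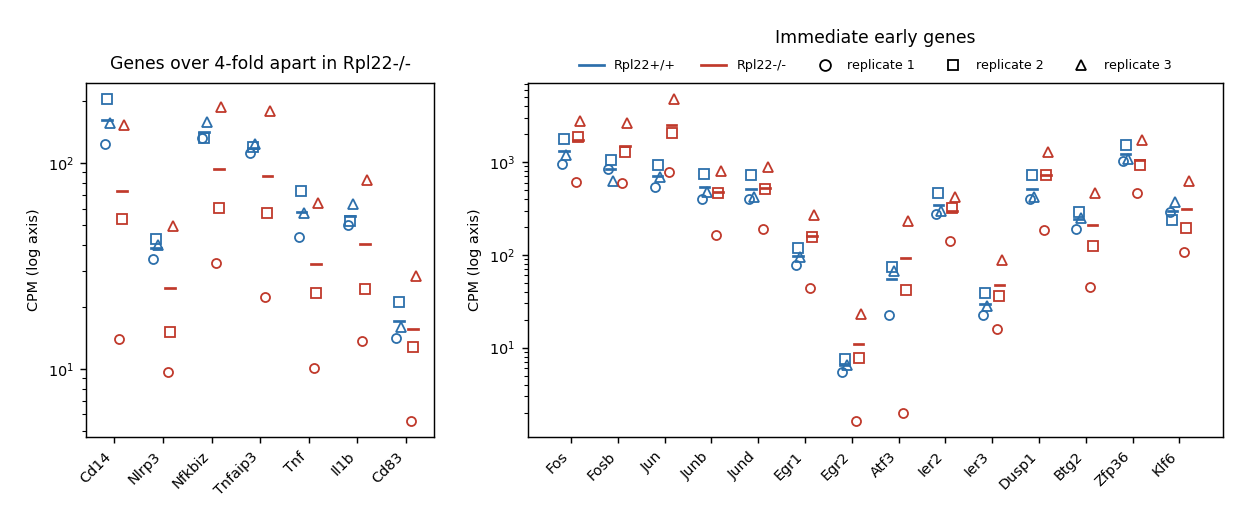
CPM (log axis) per library of the 7 genes that differed by over 4-fold between Rpl22-/- libraries (left) and of 14 immediate early genes (right), in Rpl22+/+ (blue) and Rpl22-/- (red), with bars at the means. In both panels the red circle (replicate 1) is the lowest and the red triangle (replicate 3) the highest red point of every gene, while the blue points lie closer together.

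Rpl22+/+ replicate 2 also stood apart in a way that followed base composition. It was the highest Rpl22+/+ library for 30 of the 46 genes and the lowest for 12, against 61.0% and 33.0% of all genes. The transcripts of the 30 had a median GC content of 53.6% and those of the 12 of 42.3% (53.0% and 44.7% over all genes). The 12 included Tlr1, Tlr4, Tlr6, Tlr7, Tlr8 and Tlr13, together with Rel, Casp1 and Casp4. With each library corrected for GC content, 24 of the genes passed the adjusted p in place of 16, while the share of all genes that passed went from 27.6% to 36%. Tlr7 (-1.42, edgeR adjusted p = 0.000345) and Tlr8 (-1.77, 0.000702) were then lower with smaller p-values, Rel passed at less than 2-fold (-0.93, 0.0447), and Tlr4 was no longer called (0.80, 0.0934).

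Because the files are per transcript, the share of each gene's reads on each annotated transcript could be set beside the gene totals. Salmon estimates these shares, and their differences are described here and were not tested. Of 44 genes with at least 100 reads in every library, 15 had a leading transcript with over 90% of the reads in each, a share of the matched reads only (Casp1, whose sum was 0.792 of the authors' base mean, is among the 15). Nfkb1 was the gene with the largest shift in the share that codes for protein. Transcripts annotated as coding took 67.6%, 75.0% and 69.3% of its reads in Rpl22+/+ and 44.7%, 53.5% and 56.1% in Rpl22-/-. The groups did not overlap, and the mean went from 70.6 ± 3.91% to 51.4 ± 5.94% (SD, n = 3). Of the 19.2 percentage points lost by coding transcripts, 14.2 were gained by Nfkb1-202, a transcript annotated with a retained intron, which took 18.9%, 14.2% and 19.2% against 37.0%, 30.2% and 27.6%, and the rest by other noncoding transcripts. The coding transcripts of Traf1 traded places in Rpl22-/- replicates 1 and 2 and were near each other in replicate 3, with Traf1-201 at 19.5%, 23.7% and 21.6% against 44.0%, 40.3% and 25.1% and Traf1-202 at 31.6%, 36.0% and 32.9% against 13.5%, 17.5% and 26.5%. For Il1r2, a transcript annotated for nonsense-mediated decay, Il1r2-204, took 4.87%, 2.82% and 6.57% against 23.4%, 18.1% and 7.02%, with replicates 1 and 2 of Rpl22-/- far above the Rpl22+/+ libraries and replicate 3 just above them. Such estimates can be unstable. Nod2-202 took 66.0%, 4.40% and 10.4% of Nod2 reads in Rpl22+/+ and 95.8%, 0% and 71.7% in Rpl22-/-, a swing within each genotype.

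**Figure D5:**
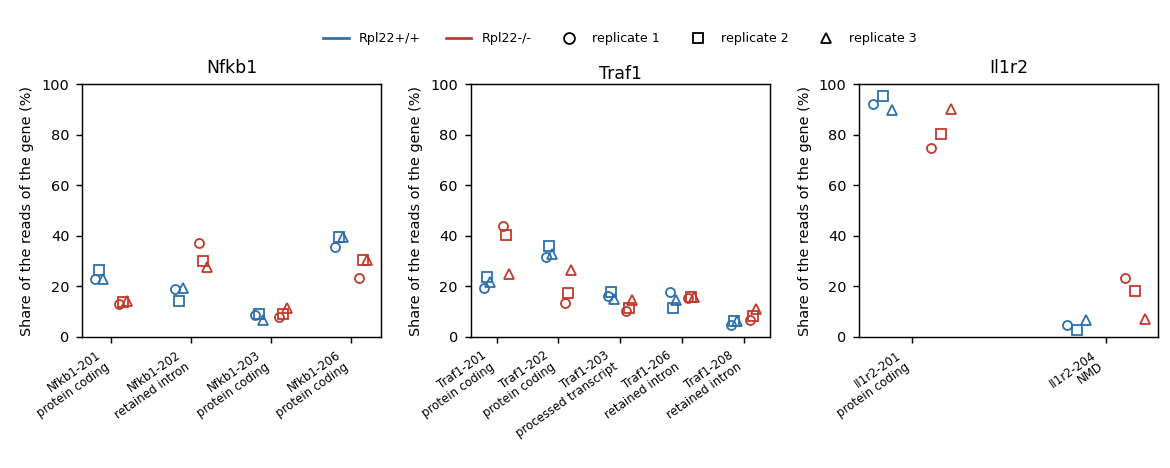
Share of a gene's estimated reads (vertical axis, percent) on each listed transcript of Nfkb1, Traf1 and Il1r2, per library of Rpl22+/+ (blue) and Rpl22-/- (red), with circles, squares and triangles for replicates 1, 2 and 3. The retained-intron transcript Nfkb1-202 has all red points (27.6% to 37.0%) above all blue points (14.2% to 19.2%).

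NF-kB feeds back on several of these genes, and the letters it prefers could be looked for upstream of their starts. RefSeq promoter windows on GRCm38.p6, 250 bases before to 50 after a start, were at hand for 40 of the 49 genes (51 windows). The kappaB consensus was found on either strand in 16 of these windows (31.4%) and in 8.46% of all 32851 windows. A shorter core, GGNNTTTCC, which overlaps part of the longer matches, was found in 35.3% and 5.82%, and TATAAA in 21.6% and 13.6%. The core was present for 13 genes, Bcl3, Casp4, Icam1, Il1rn, Il6, Myd88, Nfkb2, Nfkbia, Nlrp3, Nod2, Rel, Tnfaip2 and Tnfaip3. The 13 genes with a consensus match were Bcl3, Casp4, Il6, Nfkb2, Nfkbia, Nfkbie, Nlrp3, Rel, Sod2, Tlr2, Tnfaip2, Tnfaip3 and Tnip1. Of these Nfkb2 passed the test between genotypes. Of the genes called lower, Icam1 and Il1rn held the core without the consensus, and the windows of Tlr1, Tlr6, Tlr8, Tlr13, Birc3, Il18 and Il1r2 held neither. The 250 bases before the start are shown for 3 genes that NF-kB is known to induce, of which only Nfkb2 passed the test between genotypes. They are Nfkbia (chr12:55492648-55492897, minus strand), Tnfaip3 (chr10:19015411-19015660, minus strand) and Nfkb2 (chr19:46304487-46304736, plus strand), written 5' to 3' with kappaB consensus matches in capitals.
Nfkbia: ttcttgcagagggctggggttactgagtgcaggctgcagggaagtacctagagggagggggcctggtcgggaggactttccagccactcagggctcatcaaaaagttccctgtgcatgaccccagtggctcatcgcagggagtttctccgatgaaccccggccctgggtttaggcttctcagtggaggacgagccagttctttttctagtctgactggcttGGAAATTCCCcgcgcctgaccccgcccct
Tnfaip3: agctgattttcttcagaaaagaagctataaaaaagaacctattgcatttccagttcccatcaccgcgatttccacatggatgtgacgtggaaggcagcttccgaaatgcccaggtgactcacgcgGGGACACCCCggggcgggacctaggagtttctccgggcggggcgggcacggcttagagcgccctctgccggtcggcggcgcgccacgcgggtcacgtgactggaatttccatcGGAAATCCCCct
Nfkb2: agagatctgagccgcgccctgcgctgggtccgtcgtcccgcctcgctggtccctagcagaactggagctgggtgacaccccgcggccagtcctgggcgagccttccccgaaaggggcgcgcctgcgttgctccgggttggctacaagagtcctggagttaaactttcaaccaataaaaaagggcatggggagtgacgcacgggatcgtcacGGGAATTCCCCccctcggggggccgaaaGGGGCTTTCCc
The match of Nfkbia begins 29 bases before the start, those of Tnfaip3 125 and 12 bases before it, and those of Nfkb2 39, 38 and 11 bases before it. These windows belong to 1 start of each gene. Nfkb2 has 2 further windows, each with a match before its start (236 and 225 bases), and the other window of Tnfaip3 (chr10:19011964-19012213) holds none. Of these genes, Nfkb2 was below the Rpl22+/+ libraries in all 3 Rpl22-/- libraries, while Nfkbia and Tnfaip3 were below them in replicates 1 and 2 and within or over their range in replicate 3. A match is a description of the letters, not a site or a cause.

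Other genes of the same pathways, 65 listed by name, gave a similar count. Of 63 tested, 12 (19%) were called lower and 2 (3.17%) higher, against 8.54% and 8.93% of all genes tested. Without the fold threshold 24 (38.1%) were lower and 4 (6.35%) higher, against 13.8% and 13.7% of all genes. Their median log2 fold change was -0.37. Tnfsf13b, the B cell survival factor BAFF, had the largest fall, from 37.6, 28.3 and 33.0 to 3.61, 2.08 and 2.23 CPM (-3.66 ± 0.27, edgeR adjusted p = 0.000275). Ticam2, the adaptor that connects Tlr4 to Ticam1, fell from 23.2, 33.9 and 27.6 to 2.41, 4.46 and 4.38 CPM (-2.90 ± 0.29, adjusted p = 0.000802). In both genes every Rpl22-/- library was several-fold below every Rpl22+/+ library. Tlr5, the flagellin receptor, fell from 20.6, 18.6 and 22.5 to 4.41, 3.27 and 2.90 CPM (-2.55 ± 0.21, adjusted p = 0.000388), and the inflammasome sensor Nlrp1a fell as well (-1.89 ± 0.22, adjusted p = 0.00158). The 2 genes called higher were Ikbke, an IKK-related kinase, at 61.9, 63.7 and 64.8 against 261, 186 and 194 CPM (1.75 ± 0.17, adjusted p = 0.000697), and Lbp, the lipopolysaccharide-binding protein, at 63.7, 90.6 and 60.2 against 156, 166 and 146 CPM (1.13 ± 0.19, adjusted p = 0.00598). By list, the 11 tested genes for further interleukin-1 and TNF ligands and receptors held 6 of the 12 genes called lower, the 9 TLR and co-receptor genes 3, the 14 inflammasome genes 2 and the 29 adaptors, kinases and ubiquitin genes 1. Of the first of these lists, the 6 were Tnfsf13b, Il18r1 and Il18rap, the chains of the interleukin-18 receptor (-1.76 and -1.63), Il1rl1, the receptor of interleukin-33 (-1.56), Tnfrsf9 (-1.46) and Cd40lg (-2.21). Il1rl1, Tnfrsf9 and Cd40lg were at low levels, with means of 1.69, 2.15 and 0.562 CPM in Rpl22+/+ against 0.560, 0.780 and 0.127 CPM. The part of the lower T cell markers in the result for Cd40lg was not tested. In the same list Il18bp, which neutralizes interleukin-18, fell by less than 2-fold (-0.72, adjusted p = 0.0437), and the signaling receptor Il1r1 (0.87, adjusted p = 0.0614), Il1rl2 (-0.32), Sigirr (0.15) and Ltbr (-0.12) did not pass the test.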

How the data were processed

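Poly(A) RNA of CD11b+Gr1+ splenocytes from Mll-AF9 mice was compared between 3 Rpl22+/+ and 3 Rpl22-/- libraries, grouped by sample titles. Per the study's methods and the labels, the authors made stranded paired-end libraries and used Trimmomatic for trimming and Salmon for quantification (versions and transcript set not given in the sources used here). The authors deposited estimated counts and TPM per transcript. TPM is scaled for length, has the same sum in every library and keeps no depth. A further table that the authors deposited gives a base mean signal per gene and positions on GRCm39. Its columns of their DESeq2 comparison (log2 fold change, standard error, Wald statistic, p-values) were not used.

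Estimated counts were summed to genes with GENCODE vM21 transcript identifiers without versions, which matched 136036 of 276623 transcripts (49.2%) holding 98.0% to 98.1% of the reads, and rounded. No coordinate was taken from that annotation. Genes passing filterByExpr were TMM-scaled and tested for genotype alone by edgeR's quasi-likelihood method (edgeR 4.0.16, R 4.3.3), with Benjamini-Hochberg adjustment over 16656 genes. The SE was derived from each F statistic. In counts simulated with the spread of these libraries, the test missed most 2-fold and many 4-fold changes, and its share of false calls was above the nominal level. Far fewer genes were changed there than passed here, so these rates cannot be carried over to the data. A gene that did not pass may still differ, and calls near the threshold are less sure. Levels between genes were compared as TPM, and GC content came from the GENCODE transcripts. Promoter windows are those of RefSeq on GRCm38.p6. Figures were drawn with matplotlib 3.10.9.

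Values in every library are given for each gene called and, in each role group, for the 2 genes with the highest mean TPM. Of the other pathway genes, up to 4 called genes were named per direction, taken in order of p, and Tlr3 and the whole list of further interleukin-1 and TNF ligands and receptors were added after their values were seen. The 49 genes and all lists were chosen with earlier results of these data known, and no set test was run. Alternatives were DESeq2 size factors, no composition factor, no count filter or one at a mean of 50 counts, the test of DESeq2 1.42.0, limma-voom (limma 3.58.1), limma on log2(TPM + 1) or log2(TPM + 0.1), a minimum fold of 2, the replicate number as a block, a correction for GC content, both together, and each library left out.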

Additional observations from a re-analysis of the deposited data

How the results depend on the processing

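Of 861 comparisons of a gene of the group with an alternative, 756 kept direction and side of the threshold, 53 lost the call, 7 gained it and 45 changed direction. Il1rn, Tlr6 and Tlr13 were called under all 18 alternatives, Icam1 and Il1r2 under 17, Tlr1 under 16, Il18 under 14, Tlr4 under 11, Relb and Birc3 under 9, and Tlr7 and Tlr8 under 8. The 1 gene called higher was lost (0 genes) against a minimum fold of 2, with the GC correction and with GC correction and block, and leaving out single libraries gave 0 to 1. The 11 genes called lower became 7 with no composition factor, 5 on log2(TPM + 1), 7 on log2(TPM + 0.1) and 3 against a minimum fold of 2, and 7 (without Rpl22+/+ replicate 3) to 12 (without Rpl22-/- replicate 3) when single libraries were left out. With no composition factor, on log2(TPM + 1) and on log2(TPM + 0.1), 14, 14 and 15 genes of the group passed the adjusted p at any size. The share of all genes that did was 34.6%, 32.2% and 32.6%. The 16 genes past the adjusted p became 3 against a minimum fold of 2, 24 with the GC correction and 26 with GC correction and block, while the share of all genes went from 27.6% to 7.84%, 36% and 44.7%. With single libraries left out they became 10 (without Rpl22-/- replicate 1) to 17 (without Rpl22+/+ replicate 2), where the share of all genes was 17.8% and 40.3%. Of the other pathway genes, 1 in place of 2 was higher against a minimum fold of 2, and the 12 lower became 4 on log2(TPM + 1), 7 on log2(TPM + 0.1) and 4 against a minimum fold of 2, with 7 (without Rpl22+/+ replicate 3 or Rpl22-/- replicate 2) to 14 (without Rpl22+/+ replicate 2) for single libraries left out. Fewer calls against a minimum fold follow from its construction. For the other moves the cause was not tested. With no composition factor the median of all genes moved from 0.07 to 0.19, and on log2(TPM + 0.1) to 0.19.

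None of the genes that changed direction passed the edgeR test with all libraries. Casp4 (0.03) was at -0.032 with DESeq2 size factors, -0.0044 with no filter, -0.034 at a mean of 50 counts and -0.031 in DESeq2, and between -0.47 and 0.38 with single libraries left out. Bcl3 (0.02) was at -0.0044 with DESeq2 size factors, -0.0079 at a mean of 50 counts, -0.0043 in DESeq2, -0.16 with the GC correction and -0.15 with GC correction and block, and between -0.11 and 0.24 with single libraries left out. Il10 (0.20) was at -0.0025 in limma-voom, -0.073 on log2(TPM + 0.1), -0.077 with the replicate block, -0.11 with GC correction and block, and -0.67 to 0.62 with single libraries left out, while Il6 (0.30) was at -0.062 with GC correction and block and -0.060 to 0.61 with single libraries left out. With no composition factor, Il1rap, Tnfrsf1a, Cd83 and Sod2 were at 0.021, 0.059, 0.023 and 0.12. On log2(TPM + 1) and log2(TPM + 0.1), Il1rap was at 0.0185 and 0.024, Tnfrsf1a at 0.076 and 0.077, and Sod2 at 0.16 and 0.16, and Sod2 was at 0.0051 with no filter. With single libraries left out, the ranges were -0.054 to 0.32 for Myd88, -0.025 to 0.18 for Nod1, -0.12 to 0.37 for Casp1, -1.57 to 0.0056 for Tnfaip3, -0.32 to 0.030 for Tnip1, -0.27 to 0.025 for Il1rap, -0.20 to 0.080 for Tnfrsf1a, -0.88 to 0.28 for Cd83 and -0.15 to 0.15 for Sod2.

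Libraries with the same replicate number deviated from their group means with correlations of 0.479, 0.634 and 0.0974 over the tested genes (0.57, 0.715 and 0.129 where the mean was 50 reads or more). Rpl22+/+ replicate 3 correlated better with Rpl22-/- replicate 1 than with its own number (0.43 against 0.129), and the labels tie the numbers to nothing, so they were not taken as pairs. With the replicate number as a block, 1 gene was called higher, 9 were called lower and 19 passed the adjusted p, while the share of all genes that passed went from 27.6% to 33.8%. The calls lost were those of Relb and Birc3, whose sizes slipped under 2-fold.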
